A study of Mus musculus with 6 samples.

Results

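The genes described here are the metallothioneins Mt1 and Mt2 and 8 genes of oxidative stress defence, Hmox1, Nqo1, Gclm, Gclc, Txnrd1, Prdx1, Srxn1 and Txn1, measured on 6 expression arrays of mouse cells labelled as regulatory T cells (Treg). Every probe set, the group of short probes that reports 1 transcript on the array, was taken where its single annotated symbol was 1 of these 10 genes. This gave 17 of 22626 gene probe sets and 9 of 12393 genes. Prdx1, a peroxiredoxin that removes hydrogen peroxide, had no probe set of its own: 5 probe sets carry its symbol together with Gm21399, and no value is given for them.

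The tested arrays were 3 with USP7 titles, and 3 control arrays carried B6_WT titles and the genotype Foxp3cre. For the USP7-titled arrays the series text names fl-Usp7/Foxp3cre mice, a deletion of the deubiquitinase gene Usp7 by a Cre recombinase tied to Foxp3, while their genotype field reads fl-HDAC11/Foxp3cre. All 6 samples are labelled Treg, with CD4+YFP+ given as the sort and C57BL/6 as the background of the mice. Both groups therefore carry Foxp3cre, and the comparison asks how transcripts of the sorted cells differ with the floxed allele. The labels give neither age nor sex, and whether each sample came from its own animal is not stated, so the p-values cover only variation among these samples, which may be technical.

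Metallothioneins are small, cysteine-rich proteins that bind zinc and copper ions and can scavenge reactive oxygen species. Their genes are switched on by the zinc-sensing factor Mtf1, which binds metal response elements. The other genes are classic targets of Nrf2, encoded by Nfe2l2, which Keap1 holds at a low level until oxidants or electrophiles modify Keap1. Nrf2 then binds antioxidant response elements with small Maf proteins and raises glutathione synthesis, the thioredoxin system, heme breakdown and quinone reduction. In T cells thioredoxin also supplies reducing power to ribonucleotide reductase during DNA synthesis.

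The RefSeq windows around the annotated starts of Mt1 and Mt2 are shown because these neighbouring genes on chromosome 8 held the largest rises among the 17 probe sets together with Hmox1, and that of Gclm because it holds both kinds of motif searched. Each window has 250 bases before the start and 30 after it (build GRCm38.p6, all on the + strand), and capitals mark matches on either strand to the metal response element core, TGCACNC or TGCGCNC, or to the antioxidant response element core, TGACNNNGC. The windows are chr8:94178839-94179118 for Mt1, chr8:94172368-94172647 for Mt2 and chr3:122245307-122245586 for Gclm.
Mt1: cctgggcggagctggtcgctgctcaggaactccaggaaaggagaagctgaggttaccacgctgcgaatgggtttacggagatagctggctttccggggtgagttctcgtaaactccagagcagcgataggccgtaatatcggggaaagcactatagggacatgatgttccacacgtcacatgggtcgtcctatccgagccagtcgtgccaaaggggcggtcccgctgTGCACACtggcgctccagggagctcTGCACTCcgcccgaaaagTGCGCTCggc
Mt2: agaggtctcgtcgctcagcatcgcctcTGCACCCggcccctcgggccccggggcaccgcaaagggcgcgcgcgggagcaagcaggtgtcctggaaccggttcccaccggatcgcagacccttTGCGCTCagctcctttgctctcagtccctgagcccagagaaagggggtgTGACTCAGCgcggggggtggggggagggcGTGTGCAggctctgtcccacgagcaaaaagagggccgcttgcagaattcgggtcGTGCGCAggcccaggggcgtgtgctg
Gclm: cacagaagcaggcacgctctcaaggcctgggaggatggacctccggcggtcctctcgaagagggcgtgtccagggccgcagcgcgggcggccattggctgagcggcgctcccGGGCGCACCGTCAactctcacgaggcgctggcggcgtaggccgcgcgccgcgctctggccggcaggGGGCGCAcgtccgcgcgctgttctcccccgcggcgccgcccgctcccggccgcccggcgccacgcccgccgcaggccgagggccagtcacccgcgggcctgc

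The Mt1 window held 3 metal response element cores and no antioxidant core. These cores lie at bases -23 to -17 before the annotated start and at 3 to 9 and 21 to 27 after it. The Mt2 window held 4 metal response cores, 1 of them after the start at bases 5 to 11. It held 1 antioxidant core at bases -79 to -71, and the letters TGACTCA of an AP-1 site lie inside that antioxidant match. Gclm had 2 metal response cores and 1 antioxidant core on the opposite strand, where the antioxidant match at -134 to -126 overlaps the metal response match at -138 to -132. Of 32817 windows of this length in the RefSeq table, 24.1% held at least 1 metal response core, 1.73% held at least 3 and 11.5% held an antioxidant core. Of the other windows of these genes, Srxn1 held 1 metal response core and no match to the antioxidant core as written. It also held the AP-1 letters 2 times on the opposite strand, at -102 to -96 and -45 to -39. An antioxidant core lay in 1 of 3 Txnrd1 windows, while the windows of Nqo1 and Txn1 held neither core. Matches describe letters in the reference only, and 7 of the 9 measured genes had a window in the table. Other forms of these elements, and bases outside the windows, were not searched.

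**Figure D1:**
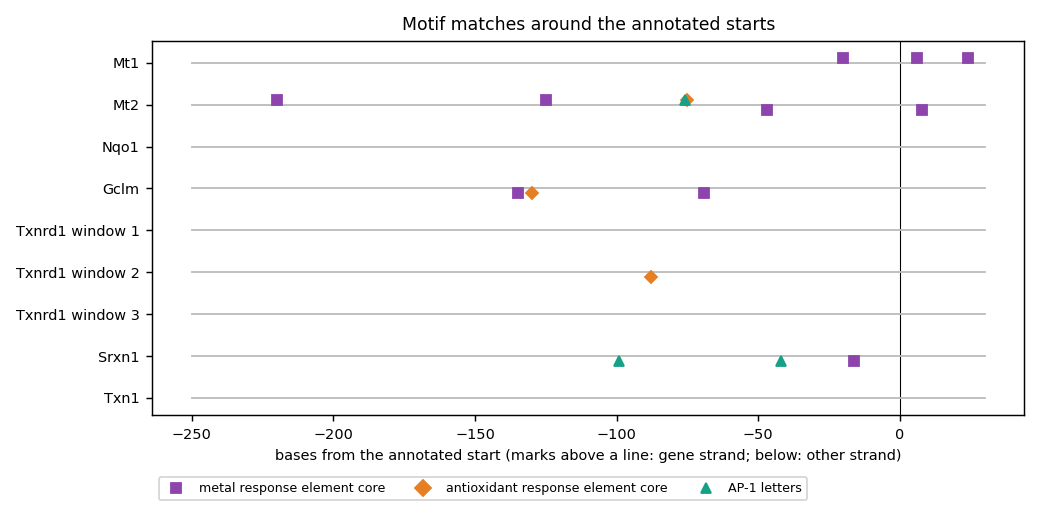
Positions of motif matches from 250 bases before to 30 bases after the annotated start (x axis, in bases; vertical line, the start) in the 9 windows of 7 genes. Squares are metal response element cores, diamonds antioxidant response element cores and triangles AP-1 letters; Mt1 has 3 squares and Mt2 has 4.

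On the log2 scale the median of an array was 7.91 to 7.96, and Pearson's r across gene probe sets was 0.9917 to 0.9927 among USP7-titled arrays, 0.995 to 0.9958 among controls and 0.9703 to 0.9749 between groups. RNA integrity was read as how far the 3' control of a gene exceeded its 5' control on the log2 scale. For Gapdh this was 0.907 to 0.986 in USP7-titled arrays and 0.989 to 1.23 in controls. For beta-actin it was -0.18 to -0.155 in USP7-titled arrays and -0.286 to -0.151 in controls. Usp7 read 10.54, 10.69 and 10.76 in USP7-titled arrays, against 11.69, 11.73 and 11.61 in control arrays, and 49.6% of the control level remained by this brighter of its probe sets. Hdac11, named in the genotype field, was dim and changed by -0.58 (SE 0.16, limma adjusted p = 0.019), a call that was lost without control replicate 1 (-0.44, adjusted p = 0.0878) or USP7-titled replicate 2 (-0.50, adjusted p = 0.0645). A second, dimmer Hdac11 probe set was at -0.22 (adjusted p = 0.354), with overlapping groups. The conflict between the labels was therefore left as it stands. Cd4 was bright in both groups (mean 12.83 in USP7-titled and 12.82 in control arrays), whereas the single Foxp3 probe set, which marks Treg, read 6.85 to 7.29 in USP7-titled arrays and 12.82 to 13.13 in controls. By this probe set alone, the Foxp3 level in USP7-titled arrays, 1.59% of that in controls, goes against their Treg label. Other Treg markers were bright in both groups. Means in USP7-titled and control arrays were 12.68 and 12.85 for Il2ra and 12.17 and 12.53 for Ctla4. They were 12.47 and 12.59 for Tnfrsf18 and 10.84 and 11.05 for Ikzf2. The brightest Xist probe set read 4.63 to 5.65 in USP7-titled arrays and 12.43 to 12.54 in controls, and the Y-linked Eif2s3y read 10.09 to 10.19 in USP7-titled arrays and 3.99 to 5.25 in controls, so the groups' difference in sex cannot be told apart from that in genotype; 0 of the 9 measured genes lie on X or Y. The genes named below outside these 9 were not checked for X or Y linkage. Over all probe sets, 16.2% rose and 17.1% fell at a limma adjusted p under 0.05.

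Of the 17 probe sets, 9 rose in USP7-titled arrays, 0 fell and 8 did not pass (limma, Benjamini-Hochberg adjustment over all 22626 probe sets, threshold 0.05). The 9 report 7 genes, Mt1, Mt2, Hmox1, Nqo1, Gclm, Txnrd1 and Txn1. All probe sets of 5 of these rose, but Mt2, Hmox1, Nqo1 and Gclm have only 1 each. Txnrd1 has 3, while Mt1 and Txn1 have 2 each, of which 1 rose. Against the 16.2% of all probe sets that were higher, the share among these probe sets was larger, but they were not chosen blind to earlier results of these arrays. In 12 of the 17 probe sets the groups did not overlap, compared with 45.7% of all probe sets. By the brightest probe set of each gene, the median change was 0.60 on the log2 scale, against -0.05 for all genes. With the arrays scaled to the hybridization spikes, RNAs added at known amounts, those medians were 0.76 and 0.11.

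**Figure D2:**
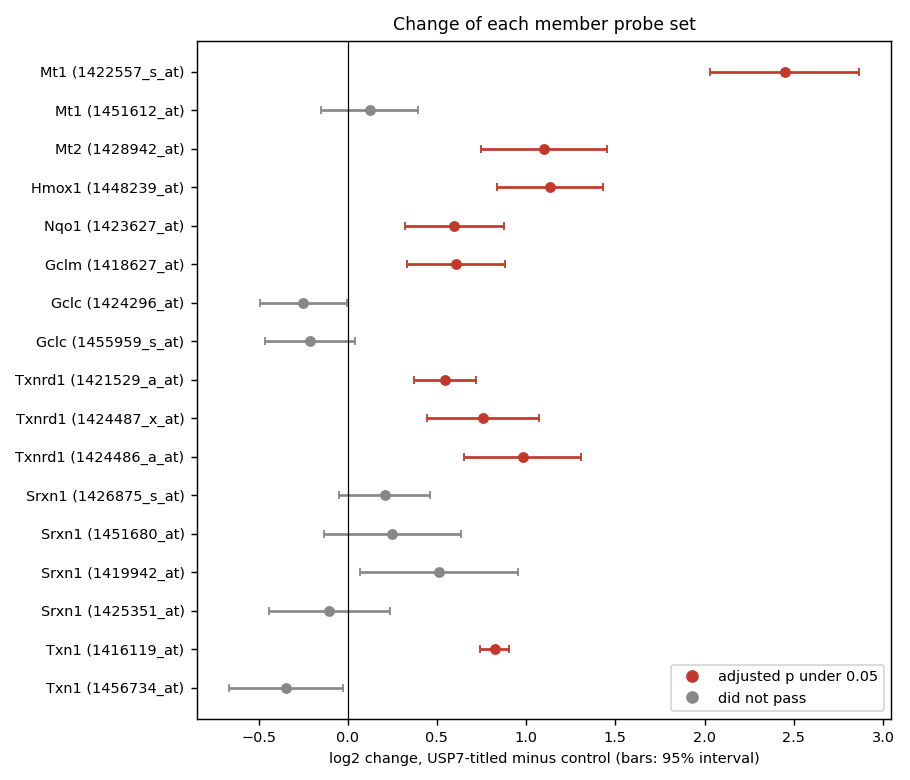
Log2 change (x axis, USP7-titled minus control) of each of the 17 probe sets with its 95% interval. The 9 red points passed at a limma adjusted p under 0.05 and all lie to the right of 0, from 0.54 to 2.45; grey points did not pass.

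Mt1 rose the furthest. Its brighter probe set (1422557_s_at) read 8.68, 9.28 and 9.13 in USP7-titled arrays, against 6.38, 6.44 and 6.93 in control arrays. Every USP7-titled array was above every control, and control replicate 3 was the highest of the controls. The mean was 9.03 ± 0.31 in USP7-titled and 6.58 ± 0.30 in control arrays (SD, n = 3 each). The change was 2.45 (SE 0.19, 95% interval 2.03 to 2.87), or 5.46-fold (limma adjusted p = 4.58e-06). Ordered by change from the largest rise, it stood at place 100 of the 22626 probe sets. Its control level lay at percentile 30.5 of the array, where background compresses fold changes. The other Mt1 probe set (1451612_at) read 6.43, 6.54 and 6.36 in USP7-titled arrays and 6.31, 6.36 and 6.29 in controls. It did not pass, at 0.12 (SE 0.12, 95% interval -0.15 to 0.39, limma adjusted p = 0.496), so the rise of Mt1 rests on 1 of its 2 probe sets. On this array type the suffix _s_at marks a probe set whose probes can match more than 1 transcript, and cross-hybridization with the related Mt2 was not tested.

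Mt2, the neighbour of Mt1, rose less. It read 8.05, 8.31 and 8.35 in USP7-titled arrays, against 7.46, 6.96 and 6.98 in controls. The groups did not overlap, with control replicate 1 the closest to the USP7-titled arrays. The change was 1.10 (SE 0.16, 95% interval 0.74 to 1.45), or 2.14-fold (limma adjusted p = 0.000404). The intervals of the changes of Mt1's brighter probe set and of Mt2 do not overlap, but the difference between these genes was not tested. Of the remaining metallothioneins, Mt3 changed by -0.11 (SE 0.12, limma adjusted p = 0.527) and Mt4 by -0.01 (SE 0.15, adjusted p = 0.959). Mt4 was dim, with means of 5.25 in USP7-titled and 5.26 in control arrays, so a change could be missed.

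Hmox1 encodes heme oxygenase 1, which splits heme into biliverdin, iron and carbon monoxide. It read 8.67, 8.79 and 8.70 in USP7-titled arrays, against 7.62, 7.35 and 7.79 in controls. The USP7-titled arrays lay close together and above all controls. The change was 1.13 (SE 0.13, 95% interval 0.84 to 1.43), or 2.19-fold (limma adjusted p = 9.81e-05). Hmox1 is also strongly expressed by macrophages, and myeloid markers rose in the same arrays, where 16.9% of all genes were higher. Of 19 measured myeloid markers 13 rose and 0 fell, among them the complement gene C1qb (2.86, SE 0.23) and the lysozyme gene Lyz1 (2.48, SE 0.24, with a dimmer probe set at 0.00). The brightest of the list, Lyz2 and the receptor gene Csf1r, rose by 1.65 (SE 0.18) and 1.99 (SE 0.34), with a Csf1r probe set at 0.03. The mean log2 level of the list was 7.64 to 7.95 in USP7-titled and 6.32 to 6.65 in control arrays, and the sum of its linear values was 5452 to 7082 in USP7-titled and 1824 to 2371 in control arrays. All 19 control means lay below the median probe set; the arrays give no zero, so no marker can be called absent. Among the defining macrophage markers, Adgre1 had means of 5.74 and 5.25 and Cd68 of 8.21 and 7.78 in USP7-titled and control arrays, and neither passed. Their part in the Hmox1 result was not tested.

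**Figure D3:**
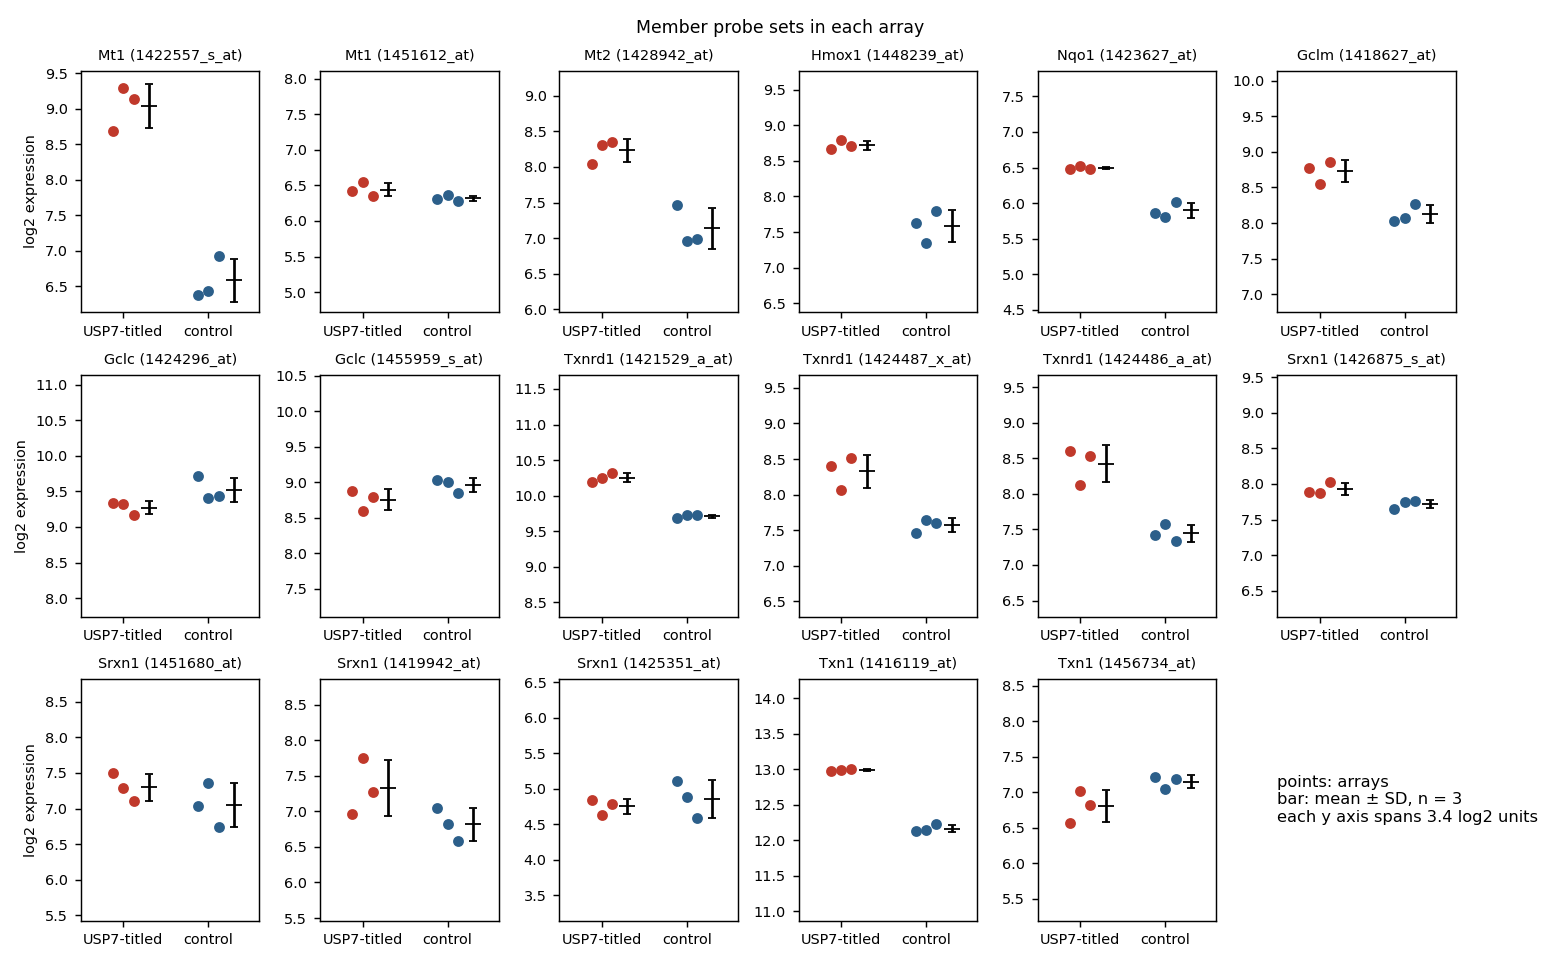
Log2 expression (y axis, each spanning the same range of units) of the 17 probe sets in the USP7-titled (red) and control (blue) arrays; points are single arrays and bars the mean ± SD of 3. The bright Mt1 probe set shows the widest gap between groups, 8.68 at least in USP7-titled arrays against 6.93 at most in controls, while the 4 Srxn1 panels show small gaps or overlap.

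Nqo1 encodes a quinone reductase that uses NADPH or NADH and is a standard readout of Nrf2 activity. It was dim, at 6.49, 6.52 and 6.48 in USP7-titled arrays, against 5.86, 5.81 and 6.02 in controls. All USP7-titled arrays were above all controls. The change was 0.60 (SE 0.12, 95% interval 0.32 to 0.87), or 1.51-fold (limma adjusted p = 0.0038).

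The pair of subunits that make glutamate-cysteine ligase, the rate-limiting enzyme of glutathione synthesis, gave different results. The modifier subunit Gclm read 8.77, 8.55 and 8.86 in USP7-titled arrays, against 8.03, 8.07 and 8.27 in controls, with no overlap. It rose by 0.60 (SE 0.12, 95% interval 0.33 to 0.88), or 1.52-fold (limma adjusted p = 0.00355). The catalytic subunit Gclc read 9.33, 9.33 and 9.16 in USP7-titled arrays and 9.72, 9.41 and 9.44 in controls by its brighter probe set. These values did not overlap, yet the change of -0.25 (SE 0.11, 95% interval -0.49 to -0.01) did not pass (limma adjusted p = 0.11). Its other probe set was at -0.21 (SE 0.11, adjusted p = 0.19), with overlapping groups. The brighter Gclc probe set was at -0.15 without control replicate 1 and at -0.09 under spike scaling, and the other at -0.13 without USP7-titled replicate 2 and at -0.05 under spike scaling. As deposited, the intervals of Gclm and of both Gclc probe sets do not meet; the difference between the genes was not tested.

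Of the thioredoxin system, Txn1 and Txnrd1 rose. Txn1, thioredoxin itself, was the brightest of the genes, at percentile 97.2 in controls. Its bright probe set read 12.97, 12.99 and 13.00 in USP7-titled arrays, against 12.13, 12.14 and 12.22 in controls. The arrays of each group lay within 0.1 of one another and the groups were far apart relative to that spread. The change was 0.82 (SE 0.04, 95% interval 0.74 to 0.91), or 1.77-fold (limma adjusted p = 9.99e-08). A dim second Txn1 probe set ran the other way, at 6.57, 7.01 and 6.83 in USP7-titled arrays and 7.22, 7.05 and 7.18 in controls. It did not pass (-0.35, SE 0.14, limma adjusted p = 0.0917), although it did without USP7-titled replicate 2 (-0.45, adjusted p = 0.0464).

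Txnrd1, the reductase that restores thioredoxin with NADPH, rose by all 3 of its probe sets. The brightest read 10.20, 10.25 and 10.31 in USP7-titled arrays, against 9.68, 9.73 and 9.72 in controls. It changed by 0.54 (SE 0.08, limma adjusted p = 0.000349), and the dimmer ones by 0.76 (SE 0.14, adjusted p = 0.00195) and 0.98 (SE 0.15, adjusted p = 0.000509). In folds the 3 probe sets gave 1.46, 1.69 and 1.97, and in none did the groups overlap. The related reductase genes Txnrd2 and Txnrd3 did not rise. By their brightest probe sets they were at -0.24 (limma adjusted p = 0.216) and -0.46 (adjusted p = 0.0793). Another Txnrd3 probe set passed as lower, at -0.41.

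Srxn1, sulfiredoxin, which repairs over-oxidised peroxiredoxins, did not pass by any of its 4 probe sets. The brightest read 7.88, 7.87 and 8.02 in USP7-titled arrays and 7.65, 7.75 and 7.76 in controls, a change of 0.21 (SE 0.12, 95% interval -0.05 to 0.46, limma adjusted p = 0.205). The groups did not overlap there but overlapped in the other 3, which were at 0.25, 0.51 and -0.10. The first of these was at 0.10 without control replicate 3, 0.15 without USP7-titled replicate 1 and 0.41 both without control replicate 2 and under spike scaling. The probe set at 0.51 (limma adjusted p = 0.0746) passed under spike scaling (0.67, adjusted p = 0.024), with array weights (0.56, adjusted p = 0.0447) and without USP7-titled replicate 1 (0.69, adjusted p = 0.0209), and its USP7-titled values of 6.96, 7.75 and 7.28 were the most scattered of all (SD 0.39).

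The 5 genes whose brightest probe set tracked that of Mt1 most closely over the 6 arrays were Gins1, a replication factor (r = 0.9981), Zcchc3 (r = 0.998), the kinase gene Sgk1 (r = 0.998), the spindle gene Spag5 (r = 0.9975) and Lxn (r = 0.9968). These r values describe 6 points in 2 separate groups and mainly reflect the group difference. Of 1420 genes that ranged over at least 1 log2 unit, 355 had r above 0.95 with Mt1, and Mt2 stood at r = 0.93.

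Genes around these pathways were taken from 8 lists. Together 44 of 133 measured genes were higher and 13 lower by their brightest probe set, compared with 16.9% higher and 15.6% lower of all 12393 genes. Under spike scaling 58 were higher and 8 lower, where 23.7% of all genes were higher and 7.41% lower. The plot of the lists shows where the rises fell.

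**Figure D4:**
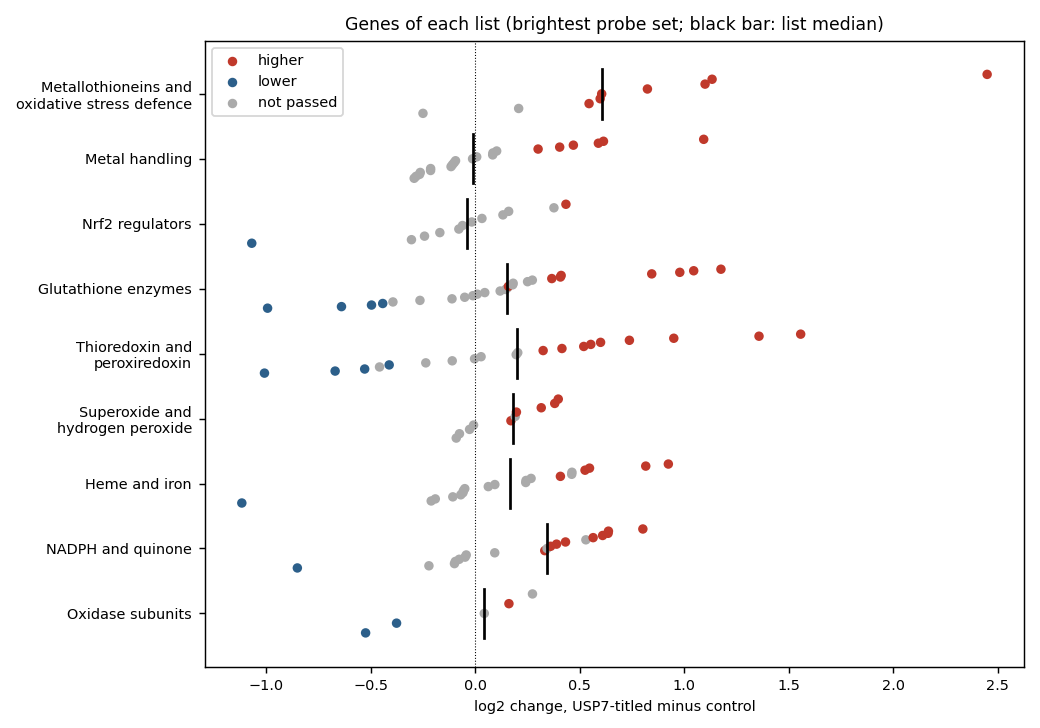
Log2 change (x axis, USP7-titled minus control) of each measured gene in the 9 genes described above and in 8 pathway lists, by the brightest probe set; black bars are list medians and colours give the limma call. The topmost row reaches 2.45 with Mt1, and the Nrf2 regulators have 1 higher and 1 lower gene of 12.

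In the list of Nrf2 regulators 1 of 12 measured genes was higher and 1 lower, with a median of -0.04. Nfe2l2 was at 0.38 (SE 0.14, limma adjusted p = 0.0612) and Keap1 at 0.13 (SE 0.10, adjusted p = 0.361) by its brighter probe set, while its dimmer one rose by 0.39. Bach2, which represses genes with Maf recognition elements and keeps lymphocytes quiescent, fell by 1.07 (SE 0.13, limma adjusted p = 9.73e-05). Dpp3, a Keap1-binding peptidase, rose by 0.43 (SE 0.12, adjusted p = 0.0203), a call lost without control replicate 1 (0.33, adjusted p = 0.0886), USP7-titled replicate 2 (0.42, adjusted p = 0.0553) or USP7-titled replicate 3 (0.38, adjusted p = 0.0675).

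Of 21 measured metal handling genes 6 rose and 0 fell, and their median was -0.01. The zinc transporter Slc30a4 rose by 1.09 (SE 0.20), the copper chaperone Atox1 by 0.61 (SE 0.06, with 1 of its other probe sets at 0.01) and the zinc importers Slc39a6 and Slc39a8 by 0.59 (SE 0.08) and 0.47 (SE 0.14). The Slc39a8 call was lost without USP7-titled replicate 2 (0.41, limma adjusted p = 0.075) or control replicate 2 (0.34, adjusted p = 0.0929). Mtf1, the zinc sensor, was at -0.21 (SE 0.12, limma adjusted p = 0.223). The zinc exporter Slc30a1, itself a known Mtf1 target, was at -0.29 (SE 0.11, adjusted p = 0.0739).

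The 26 measured glutathione enzymes had a median change of 0.15, and 8 rose while 4 fell. Glutathione reductase (Gsr) rose by 1.18 (SE 0.12), the transferase Gstt2 by 1.05 (SE 0.10) and glutathione synthetase (Gss), which completes the product of Gclm and Gclc, by 0.98 (SE 0.19). The microsomal transferase Mgst2 fell by 0.99 (SE 0.07). The cystine transporter Slc7a11, another Nrf2 target, was at 0.12 (SE 0.16, limma adjusted p = 0.606). Its means of 3.51 in USP7-titled and 3.39 in control arrays lie near the lowest values of the arrays. A change of this transcript could therefore be missed.

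In the thioredoxin and peroxiredoxin list, of 20 measured genes, 9 passed as higher and 4 as lower, and the median was 0.20. Prdx4, the peroxiredoxin of the endoplasmic reticulum, rose by 1.56 (SE 0.13), and its other probe sets by 2.14 and 1.74. Txndc5, a protein disulfide isomerase, rose by 1.36 (SE 0.14) and the methionine sulfoxide reductase Msrb1 by 0.95 (SE 0.11). Sesn1, a stress sensor and known p53 target, fell by 1.01 (SE 0.06).

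Enzymes that supply NADPH or handle quinones and aldehydes were called higher for 9 of 19 genes and lower for 1; the median change was 0.34. Idh2, the mitochondrial isocitrate dehydrogenase, rose by 0.80 (SE 0.10), the aldehyde dehydrogenase gene Aldh9a1 by 0.64 (SE 0.10) and Pgd of the pentose phosphate pathway by 0.64 (SE 0.06). Ephx1, an epoxide hydrolase and Nrf2 target, fell by 0.85 (SE 0.08).

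Heme and iron genes had a median change of 0.17 over 20 genes, of which 5 rose and 1 fell, and under spike scaling, where 23.7% of all genes were higher, 11 rose. Biliverdin reductase Blvra, the enzyme after heme oxygenase, rose by 0.82 (SE 0.10), and the heme synthesis genes Alad and Cpox by 0.92 (SE 0.11) and 0.55 (SE 0.13). Ppox, of the same pathway, fell by 1.12 (SE 0.14), with another probe set at -0.24. Ferritin heavy chain, Fth1, was at -0.07 (SE 0.03, limma adjusted p = 0.151). Erythroid markers gave 0 of 7 higher and 1 lower in the same arrays, Gata1 (-0.73, SE 0.13), where 15.6% of all genes were lower. Epb42 was at -0.17 (limma adjusted p = 0.394), with another probe set lower at -0.65.

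In the list for superoxide and hydrogen peroxide 5 of 10 measured genes were higher and 0 lower, and the median was 0.18. Romo1, a mitochondrial membrane protein, rose by 0.40 (SE 0.05), catalase (Cat) by 0.38 (SE 0.08) and Sod1 by 0.20 (SE 0.03), with another Sod1 probe set at -0.27. The Sod1 call was lost without a mean-variance trend (adjusted p = 0.0891). Pon2, a lactonase with antioxidant activity, rose by 0.32 (SE 0.08), while its other probe set fell by 0.70; the rise did not pass without USP7-titled replicate 3 (0.29). Of 5 measured subunits of the superoxide-producing oxidase, Cybb fell by 0.53 (SE 0.14) and Ncf4 by 0.38 (SE 0.07), while Cyba rose by 0.16 (SE 0.04). Under spike scaling neither fall passed (Cybb -0.37, adjusted p = 0.0924; Ncf4 -0.22, adjusted p = 0.115). The Cybb call was also lost without control replicate 3 (-0.49, adjusted p = 0.0529), and that of Cyba under quantile normalization (0.09, adjusted p = 0.151), without a trend (adjusted p = 0.153), and without USP7-titled replicate 2 (0.16, adjusted p = 0.0561) or control replicate 2 (0.14, adjusted p = 0.0652).

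Markers of proliferation and of other cells were read in the same arrays. Of all genes, 16.9% were higher and 15.6% lower by their brightest probe set. All 11 measured proliferation markers rose, with a median of 2.94; Bub1 rose by 3.71 (SE 0.22), Birc5 by 3.70 (SE 0.13), Mki67 by 2.17 (SE 0.09) and Pcna by 0.63 (SE 0.04). Their mean log2 level was 11.15 to 11.22 in USP7-titled and 8.50 to 8.75 in control arrays. Of 10 CD8 T and NK markers 3 rose and 1 fell, with Gzmb at 3.29 (SE 0.09), Gzma at 3.21 (SE 0.19) and Nkg7 at 2.76 (SE 0.07), while the list's median was -0.07. Prf1 fell by 0.45 (SE 0.09), and Cd8a (0.02), Cd8b1 (-0.23), Klrd1 (0.19), Ncr1 (-0.15), Klrk1 (-0.26) and Eomes (-0.52) did not pass. The list's mean level was 7.92 to 8.07 in USP7-titled and 7.15 to 7.30 in control arrays. Of 7 B cell markers Ms4a1 rose (0.998, SE 0.29, with another probe set at 0.34) and Cr2 fell (-0.59, SE 0.13), while the brightest, Cd79b and Cd79a, were at 0.23 and -0.29 and did not pass. Of 8 Treg and T cell markers 0 rose and 6 fell, with a median of -0.145. Foxp3 fell by far the most (-5.98, SE 0.13). The other falls were small, with Ctla4 at -0.36 (SE 0.05), Ikzf2 at -0.21 and Il2ra at -0.17 (SE 0.03). Tnfrsf18 was at -0.12 and Cd3e at -0.11. Under spike scaling 1 rose and 2 fell. The part of these differences in the rises of Mt1, Mt2, Txn1 and the other genes was not tested. In bulk RNA, a change in the share of a cell type and a change in RNA per cell cannot be told apart.

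**Figure D5:**
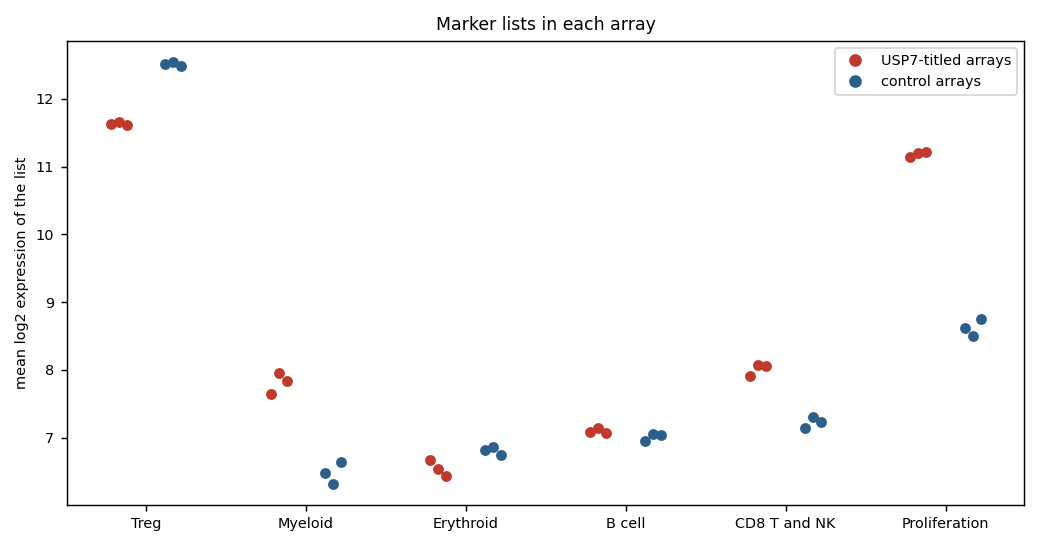
Mean log2 expression (y axis) of each marker list, by the brightest probe set of each gene, in single USP7-titled (red) and control (blue) arrays. Proliferation and myeloid lists are higher in every USP7-titled array, at 11.15 to 11.22 against 8.50 to 8.75 and at 7.64 to 7.95 against 6.32 to 6.65. The mean of the Treg list is lower, at 11.61 to 11.66 against 12.48 to 12.55. Foxp3, at -5.98, makes most of that gap, and the median change of the list was -0.145.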

How the data were processed

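Gene expression was measured in 3 USP7-titled and 3 control samples. Total RNA, 100 ng per sample, was amplified and labelled with biotin per the labels' protocols. The deposited values are log2 expression per probe set, made by the authors; the base was read from the values (2.21 to 14.47), while how probes were summarised and normalized is not stated; detection calls were not used. Making arrays alike can mask a shift in RNA content per cell. After setting 64 array controls aside, 22626 probe sets remained, of which 20380 had 1 gene symbol, 691 several and 1555 none in the platform annotation; only single symbols named genes. All 9 measured genes matched RefSeq (GRCm38.p6) by identifier, and sequences are RefSeq's.

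No value was changed. USP7-titled minus control was fitted over all 22626 probe sets with limma 3.58.1 in R 4.3.3 (lmFit, eBayes with trend), with a two-sided test and Benjamini-Hochberg adjustment. Adjusted p-values in the text are from this model unless a setting is named. A single probe set's exact permutation p cannot fall below 0.1 with 3 arrays against 3. Lists used each gene's probe set with the highest mean. Named genes are all members, the label genes and the 5 nearest to Mt1. Each pathway list adds up to 4 called genes of largest change (2 of smallest p where none passed). Each marker list adds the 2 called genes of largest change and its 2 brightest. Mt3, Mt4, Mtf1, Slc30a1, Nfe2l2, Keap1, Slc7a11, Fth1, Adgre1 and Cd68 were added after their values were seen. So were Txnrd2, Txnrd3, Ikzf2, Tnfrsf18, Cd3e and the CD8 T and NK markers beyond those rules. The members and lists were chosen with earlier results of these data known. In simulated data 200 of 22626 probe sets were changed. There limma recovered 24% of changes sized 0.5, 80% of those sized 1 and 98% of those sized 2, with 5 false calls of 152. In the arrays 3673 probe sets were called higher and 3865 lower. With so many more calls the Benjamini-Hochberg cutoff is less strict, so these shares do not carry over to the real comparison. Array number limits precision; the median residual SD was 0.141.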

Additional observations from a re-analysis of the deposited data

How the results depend on the processing

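Settings tried were quantile normalization, median centring, spike scaling, leaving out the dimmest 40% of probe sets, 1 probe set per gene, array weights, a replicate block, eBayes robust or without trend, thresholds of 0.01 and 0.1, and leaving out each array. The 9 member probe sets that rose kept direction and call in every setting that held them; Mt1's change ran from 2.32 to 2.62, Hmox1's from 1.01 to 1.29 and Txn1's from 0.77 to 0.98. Of 17 member probe sets 14 kept their direction and their side of the threshold throughout, and of 29 named pathway genes 22 did. The count of higher member probe sets was 7 to 10 over all settings, where 7 is of the 9 tested with 1 probe set per gene. The count of lower ones became 1, the dim Txn1 probe set, at a threshold of 0.1, and was 0 to 1 when an array was left out (1 without USP7-titled replicate 2). The dim Srxn1 probe set at -0.10 turned to 0.0566 under spike scaling and ran from -0.24 to 0.0207 with an array left out; it passed in no setting. Spike scaling left 8 pathway genes lower, and took all probe sets to 5157 higher and 1938 lower, 72.7% higher against 48.7% as deposited (3673 and 3865), since it shifts every USP7-titled array up relative to controls. Lower probe sets numbered 2350 at a threshold of 0.01, and with 1 probe set per gene 2102 genes were higher and 1976 lower, fewer features being tested. Hdac11 was at -0.42 (adjusted p = 0.0539) under spike scaling, missed the 0.01 threshold at -0.58, and ran from -0.69 to -0.44 with an array left out. Same-numbered samples correlated at 0.069, -0.051 and 0.088 in their deviations from group means. Of 3 USP7-titled arrays, 1 correlated best with its own number. With 3 arrays per group this check is too weak to tell whether the numbers pair the samples. With the replicate block 9 member probe sets were higher and 0 lower, and 3637 and 3858 of all. Low signal limits Nqo1, Srxn1 and the dim Mt1 and Txn1 probe sets, and also Mt4 and Slc7a11.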

Other observations

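Further genes of the same lists, picked after their values were seen, describe the redox network around thioredoxin. Txnip, which binds and inhibits thioredoxin, fell by 0.53 (SE 0.06, limma adjusted p = 5.65e-05), and its other probe set by 0.76. Glrx, the glutathione-dependent glutaredoxin, rose by 0.84 (SE 0.06), and its other probe set by 0.87. The sestrins, stress-induced regulators of redox and nutrient signalling, went both ways: Sesn2 rose by 0.55 (SE 0.10) and by 1.55 by its other probe set, whereas Sesn1 and Sesn3 fell by 1.01 and 0.67 (SE 0.07). The peroxiredoxins Prdx2 and Prdx3 rose by 0.52 (SE 0.07, with another Prdx2 probe set at -0.23) and 0.32 (SE 0.07). The mitochondrial thioredoxin Txn2 was at 0.03 by its brightest probe set (adjusted p = 0.832), with another at 0.31 that passed. Of the pentose phosphate enzymes beside Pgd, Taldo1 rose by 0.61 (SE 0.08), Pgls by 0.56 (SE 0.09) and Tkt by 0.43 (SE 0.06). The cytosolic peroxidase Gpx1 rose by 0.37 (SE 0.05), while the transferase Gsta4 fell by 0.64 (SE 0.09).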
